A study of Canis lupus familiaris with 28 samples.

Results

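The comparison set 6 tumors taken from the lung of Bernese Mountain Dogs (BMDs) with histiocytic sarcoma (HS) against a single library of unaffected lung, 7 of the 28 samples of the series. The members were chosen by their labels alone, as every tumor and every unaffected library whose tissue was given as Lung. HS27, HS35, HS47, HS48 and HS52 were labelled Histiocytic Sarcoma, and HS53 was labelled Hemophagocytic Histiocytic Sarcoma (HHS), the subtype whose tumor cells engulf blood cells. The normal lung came from 1 German Shepherd Dog (GSD). Of the other controls, the normal spleen and liver were also from the GSD breed, and the 3 normal blood libraries were from BMDs and run on another flow cell. Frozen tumor tissue was used, with most of each piece judged by histopathology to be tumor, and no treatment was given in the labels for any of the 7 dogs. All 7 libraries were run on the same flow cell, from total RNA depleted of ribosomal and globin transcripts. The other 12 tumors, which were also from BMDs, came from the thorax, liver, spleen, lymph node, leg and shoulder and served as a second reference. Because the only control was a single animal of another breed, disease, breed and individual cannot be told apart in the first comparison, and the spread reported below is the spread among tumors.

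HS is a cancer of the macrophage and dendritic cell lineage that often grows in the lung, spleen and liver of predisposed breeds. Healthy lung is built mainly of thin alveolar epithelium, ciliated and secretory airway epithelium, a dense capillary endothelium and a scaffold of fibroblasts, with macrophages in the air spaces. In bulk RNA, fewer cells of a type and less RNA per cell cannot be told apart, so a lower level of a gene in a tumor is stated here only as a lower share of the library.

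The lung tumor libraries held 124147248 to 171815073 counts assigned to genes and the normal lung library 153814215, so a count of 3 was worth 0.0175 to 0.0242 counts-per-million (CPM) units in these libraries. Levels are given as log2 CPM, scaled between libraries by TMM (trimmed mean of M-values) with a prior count of 2, and were compared between libraries for the same gene only. Over 13890 genes with a mean of at least 1 CPM, pairs of lung tumors differed by a median absolute log2 difference of 0.56 (HS35 and HS47) to 1.23 (HS27 and HS53). The tumors differed from the normal lung by 0.90 (HS35) to 1.32 (HS27). All 6 were nearer to the normal spleen of another control, at 0.70 to 1.23, than to the normal lung, and the normal lung was nearer to that spleen, at 0.55, than to any tumor. HS47 and HS53 had another lung tumor, HS35, as their nearest library, whereas the nearest library of the other 4 was a tumor of the spleen, liver or leg. No pair of the lung libraries agreed within sampling noise, so all were counted.

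AGER, a receptor that marks alveolar type 1 cells, checked the tissue label. It was at 10.72 log2 CPM in the normal lung, against 1.92 in normal spleen, 1.5 in normal liver and 3.81 to 4.69 in the 3 normal blood libraries. The endothelial genes PTPRB, MYCT1 and NOTCH4 were also higher in the normal lung (8.13, 7.81 and 6.73) than in the normal spleen (5.74, 5.56 and 1.85). The macrophage and dendritic cell genes were present in all 6 tumors, with LYZ (lysozyme) at 8.02 to 12.15 and CSF2RB, the shared receptor chain for GM-CSF, at 6.62 to 8.85. The normal lung also held LYZ, at 8.45, so its presence does not set the tumors apart from lung.

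With edgeR, more genes were called lower than higher in the lung tumors, but the balance depended on the tool. Of 21723 genes tested with edgeR's quasi-likelihood test, 655 were lower (3.02% of the genes tested) and 63 were higher (0.29%), 3.31% in all, at an absolute log2 fold change (log2FC) above 1.5 and a Benjamini-Hochberg adjusted p under 0.05. With the Benjamini-Yekutieli adjustment, 16 lower and 1 higher gene remained past the threshold. DESeq2, on the same genes and thresholds, called 1094 lower and 950 higher, close to an even split. The normal lung lay above all 6 tumors for 6013 genes (27.7%) and below all 6 for 3606 (16.6%). Among the 13890 genes with a mean of at least 1 CPM these counts were 3280 and 3011, or 23.6% and 21.7%. The nearest tumor was at least 1 log2 unit below the normal lung for 3351 genes (15.4%) and at least 1 log2 unit above it for 1174 (5.4%). The normal spleen was also above all 6 lung tumors for 461 of the 655 lower genes, and below all 6 for 55 of the 63 higher genes. All 6 lung tumors lay below every one of the 6 control libraries for 69 of the lower genes, and above every one of them for 27 of the higher genes. These counts of the spleen and of all controls were taken among called genes only. No share over all genes tested stands beside them, so they are given as a description.

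The single control gives no spread of its own and was assumed to vary like the tumors. An exact two-sided permutation test of 6 values against 1 cannot go below p = 0.143. The filter on low counts also kept genes through the normal lung alone: 100 of the 655 lower genes had no tumor at the level the filter required, so their membership of the lower class was partly set by it.

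**Figure D1:**
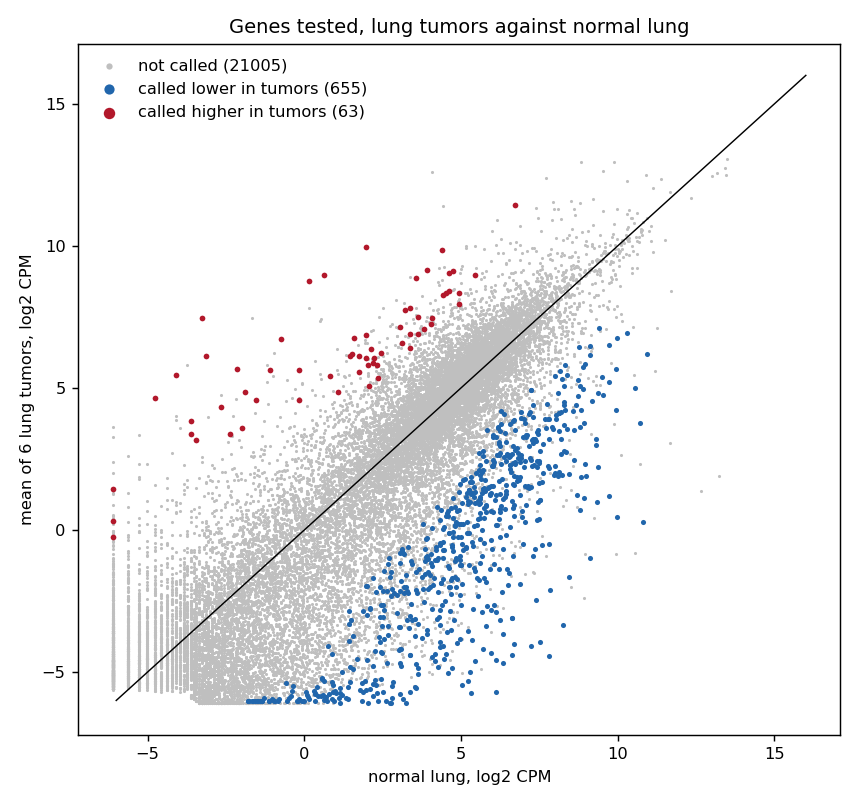
Each point is a gene tested, with its level in the normal lung on the x axis and the mean of the 6 lung tumors on the y axis, both in log2 CPM. The diagonal marks equal levels, with 655 genes called lower below it and 63 called higher above it. Vertical and horizontal rows at the lower left are genes with few or no counts in a group.

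Names were available for 1047 of the genes tested, all of them from the readable part of the study's own differential expression tables. That part is not a random draw. The 63 genes picked by the naming rule had low identifiers only, from ENSCAFG00000000040 (CCDC102B) to ENSCAFG00000001550 (FOXRED2). Of the 1047 genes, 40 were called lower and 3 were called higher, beside 3.02% and 0.29% of all genes tested. FAM162B had the lowest log2FC among them. It had 7228 counts in the normal lung, 1 in HS27, 4 in HS35 and 0 in the other 4 tumors. It passed the filter on low counts through the normal lung alone, so its difference is given as a description, with no test. WNT3A, a secreted Wnt ligand, had 2221 counts in the normal lung, 0 in HS27, HS47 and HS48, 19 in HS35, 12 in HS52 and 1 in HS53. These genes were thus at or close to the detection floor in several tumors, and their fitted fold changes, -12.58 and -8.53, depend on the prior count.

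Several of the remaining lowest named genes were also at or near the detection floor in some tumors. PVALB had 0 counts in HS27 and HS48 and 1 in HS47, and MYRFL had 0 in HS27, 2 in HS48 and 1 in HS52. CCDC102B had 0 in HS27, UNC93A 0 and MIOX 1 in HS48, and IL20RA 3 in HS53. PVALB, which encodes the calcium-binding protein parvalbumin, was at 8.25 log2 CPM in the normal lung and from -6.10, the value for no count, to 1.29 in the tumors, with HS35 the highest. Its log2FC was -9.24 ± 2.05 (SE), with an adjusted p of 0.046. In the RefSeq gene table its span overlaps that of NCF4, a myeloid gene described below, and the strand setting of the counting was not given, so reads of the pair may not be separated. The call of PVALB was lost when any of HS27, HS47, HS48, HS52 or HS53 was left out. CCDC102B was at 6.13 in the normal lung and at -6.10 to -1.43 in the tumors. MYRFL, IL20RA, UNC93A, MIOX and PTPRD were at 3.92 to 6.05 in the normal lung. In the tumors, IL20RA, a receptor subunit for cytokines of the interleukin-20 family, was at -4.86 to -1.55. The receptor phosphatase PTPRD was at -3.52 to 1.15. MIOX, the inositol-degrading oxygenase, was at -5.47 to -0.72. The other controls held MIOX above the normal lung, at 9.91 in spleen, 8.47 in liver and 9.48 to 12.69 in the 3 blood libraries. None of these lung tumor ranges reached the normal lung, which the naming rule required. The log2FC values of these genes ran from -8.53 for CCDC102B to -6.30 for PTPRD, with adjusted p of 0.012 to 0.041. The calls of CCDC102B, IL20RA and MIOX were kept when any one tumor was left out. MYRFL lost its call without any single tumor, WNT3A without HS27, HS47, HS48 or HS53, PTPRD without HS27, HS47, HS52 or HS53, and UNC93A without HS27, HS35 or HS47.

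**Figure D2:**
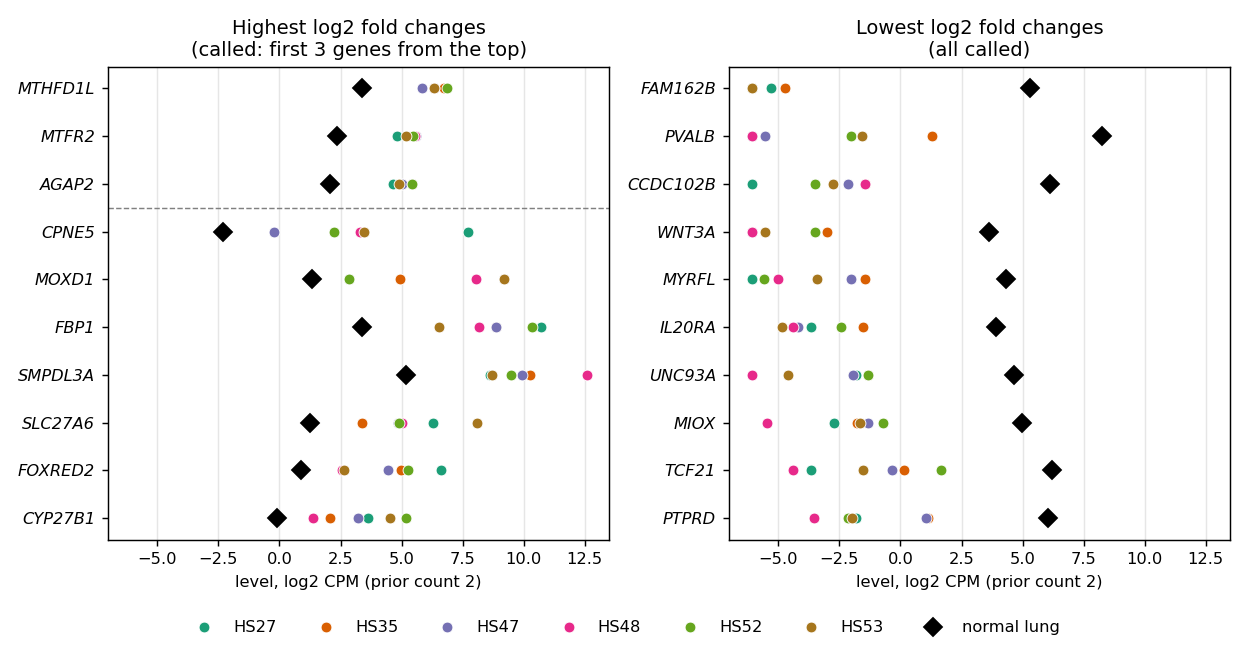
Levels in log2 CPM of the 10 named genes with the highest and the 10 with the lowest log2FC, by the naming rule. Coloured circles are the 6 lung tumors and the black diamond is the normal lung. With edgeR, only MTHFD1L, MTFR2 and AGAP2, above the dashed line, were called among the higher genes. Their tumors sit close together, whereas those of the uncalled genes below them spread over several log2 units. The test took its spread from the tumors, so this contrast is part of what gave the calls.

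Most genes of the lung epithelium stood below the normal lung in every tumor. Of 14 genes of alveolar and airway epithelium, 13 were tested, and 2 of them, AGER and DDR1, were called lower, beside 3.02% of all genes tested. The normal lung was above all 6 tumors for 11 (84.6%), beside 27.7% of all genes tested. The median log2FC of the 13 was -4.71, beside 0.08 over all genes tested. AGER stood at 10.72 in the normal lung and at 1.93 in HS27, 5.70 in HS35, 5.70 in HS47, 2.73 in HS48, 3.92 in HS52 and 2.64 in HS53. The tumors were thus all far below the normal lung, with HS35 and HS47 the highest. AGER fell by 6.22 ± 1.06 (SE) on the log2 scale (adjusted p = 0.020). DDR1, a collagen receptor of epithelial cells, stood at 6.29 in the normal lung and at 2.16 in HS27, 2.62 in HS35, 1.99 in HS47, 2.19 in HS48, 3.63 in HS52 and 1.42 in HS53. It fell by 3.78 ± 0.66 (adjusted p = 0.022). AGER kept its call when any one tumor was left out, and DDR1 lost it without HS47.

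The uncalled epithelial genes were uneven among tumors. The median SD among tumors was 2.41 over the 13 genes tested, beside 0.96 over all genes tested. TSPAN8, a tetraspanin of epithelial surfaces, stood at 10.10 in the normal lung, at -1.58 in HS27, 6.0 in HS35, 6.12 in HS47, -0.57 in HS48, 4.04 in HS52 and 1.75 in HS53. HS35 and HS47 were again the highest, and the log2FC was -5.41 ± 1.70 with an adjusted p of 0.13. The 3 normal blood libraries held TSPAN8 at 4.80 to 6.42, a range that includes HS35 and HS47. SLC44A4, a choline transporter family member, was at 4.64 in the normal lung, at 3.86 in HS52 and between -3.28 and -1.23 in the other tumors. GRHL2, a transcription factor of epithelia, was at 4.92 in the normal lung, at -6.10 in both HS27 and HS48 and at most 0.83, in HS52. Without HS52, 6 of the 13 epithelial genes were called lower and their median log2FC was -6.13. CXCL14, a chemokine made by epithelia and other cells, had the highest log2FC of the list, 4.37 ± 2.5 (adjusted p = 0.44). Its tumor levels ran from -2.38 to 5.73 around a normal lung level of 0.11. TSPAN8, SLC44A4 and GRHL2 were chosen after their values were seen, as were THBS2, CYTH4, ATP6V1C1, GTSE1, KIFC1, CDK4, HLA-DRB1, PSMB8, DLA88, RIBC2, TAP1 and TAP2 below.

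Of 16 genes of motile cilia, 15 were tested and none was called by edgeR, its newer quasi-likelihood method or DESeq2, and none had an unadjusted p under 0.05 with edgeR. The normal lung lay above all 6 tumors for 13 of them, beside 27.7% of all genes tested, and by at least 1 log2 unit for 2, a share near the 15.4% of all genes. The median log2FC was -1.81. DNAH8, an axonemal dynein heavy chain, had the lowest log2FC, -2.88 ± 1.80 (adjusted p = 0.48). The ciliary genes used as markers, RSPH4A, LRRC6 and RSPH3, were at 1.41, 2.90 and 1.45 in the normal lung. LRRC6, an assembly factor for dynein arms, was at 2.38 in HS48 and 2.37 in HS52, close to the normal lung, and between -1.84 and 0.23 in the other 4 tumors. TTLL1, which modifies tubulin, had the highest log2FC of the list, 0.46 ± 0.74.

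Most endothelial genes fell. Of 6 tested, PTPRB, MYCT1, NOTCH4 and PODXL were called lower, beside 3.02% of all genes tested. The median log2FC was -3.91, beside 0.08 over all genes tested. PTPRB, a receptor phosphatase of blood vessels, was at 8.13 in the normal lung and at 0.65 in HS27, 2.83 in HS35, 3.41 in HS47, 1.85 in HS48, 1.56 in HS52 and 1.96 in HS53. It fell by 5.82 ± 0.70 on the log2 scale (adjusted p = 0.0072). MYCT1, an endothelial membrane protein, was at 7.81 in the normal lung and at 1.15 to 3.50 in the tumors, and fell by 5.39 ± 0.67 (adjusted p = 0.0081). PODXL, a sialomucin of vessel walls, was at 8.14 in the normal lung and at 3.26 to 5.13 in the tumors, and fell by 3.87 ± 0.56 (adjusted p = 0.013). NOTCH4, the Notch receptor of endothelium, was at 6.73 in the normal lung and at 0.70 to 4.02 in the tumors, and fell by 3.94 ± 0.83 (adjusted p = 0.040). HS47 was the highest tumor for each of the 4. The calls of PTPRB, MYCT1 and PODXL were kept when any one tumor was left out, and that of NOTCH4 was lost without HS35, HS48, HS52 or HS53.

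FLT4, the receptor of lymphatic endothelium, was an exception in HS53. It was at 6.49 in the normal lung, 5.89 in HS53 and 2.51 to 3.94 in the other tumors, with a log2FC of -2.21 ± 0.93 (adjusted p = 0.26), and it was called lower without HS53. RSPO3, a secreted Wnt enhancer, lay on both sides of the normal lung. Summed over the 6 genes, the endothelial list came to 983 CPM in the normal lung, 32.5 to 93.7 CPM in the lung tumors and 197 CPM in the normal spleen.

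Fibroblast and matrix genes did not move together. Of 21 tested, 9 (42.9%) had the normal lung above all 6 tumors, beside 27.7% of all genes tested. It was below all 6 for 3 (14.3%), beside 16.6%. The other 9 had tumors on both sides, and the median log2FC was -1.17. TCF21 and ANGPT1 were called lower. TCF21, a transcription factor of lung mesenchyme, was at 6.22 in the normal lung and at -3.67 in HS27, 0.15 in HS35, -0.34 in HS47, -4.42 in HS48, 1.65 in HS52 and -1.53 in HS53. It fell by 6.36 ± 1.41 on the log2 scale (adjusted p = 0.046). ANGPT1, the angiopoietin that stabilizes vessels, was at 7.10 in the normal lung and at -1.12 to 3.48 in the tumors, and fell by 5.07 ± 0.93 (adjusted p = 0.025). TCF21 lost its call without HS27, HS35, HS47 or HS53, and ANGPT1 without HS47. FBN2, a fibrillin of elastic fibers, had the lowest log2FC, -6.40 ± 1.55, and was not called (adjusted p = 0.063). The fibroblast markers LAMA2 and COL14A1 were below the normal lung in every tumor without being called. Their levels were uneven, with COL14A1 at 5.59 in HS35 and -1.64 in HS48. PI16 was at 5.88 in HS27, above the normal lung at 5.33, and at -1.32 to 1.93 elsewhere.

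MOXD1, a monooxygenase related to dopamine beta-hydroxylase, had the highest log2FC of the matrix list and separated the tumors. It was at 1.34 in the normal lung, at 9.19 in HS47, 8.04 in HS48 and 9.19 in HS53, at 4.95 in HS35 and at 2.86 and 2.83 in HS27 and HS52. The log2FC was 6.61 ± 3.23, and with an SD among tumors of 3.01 it was not called (adjusted p = 0.35). THBS2, a matrix thrombospondin, was above the normal lung in all 6 tumors as well, at 4.20 to 7.95 against 3.09.

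**Figure D3:**
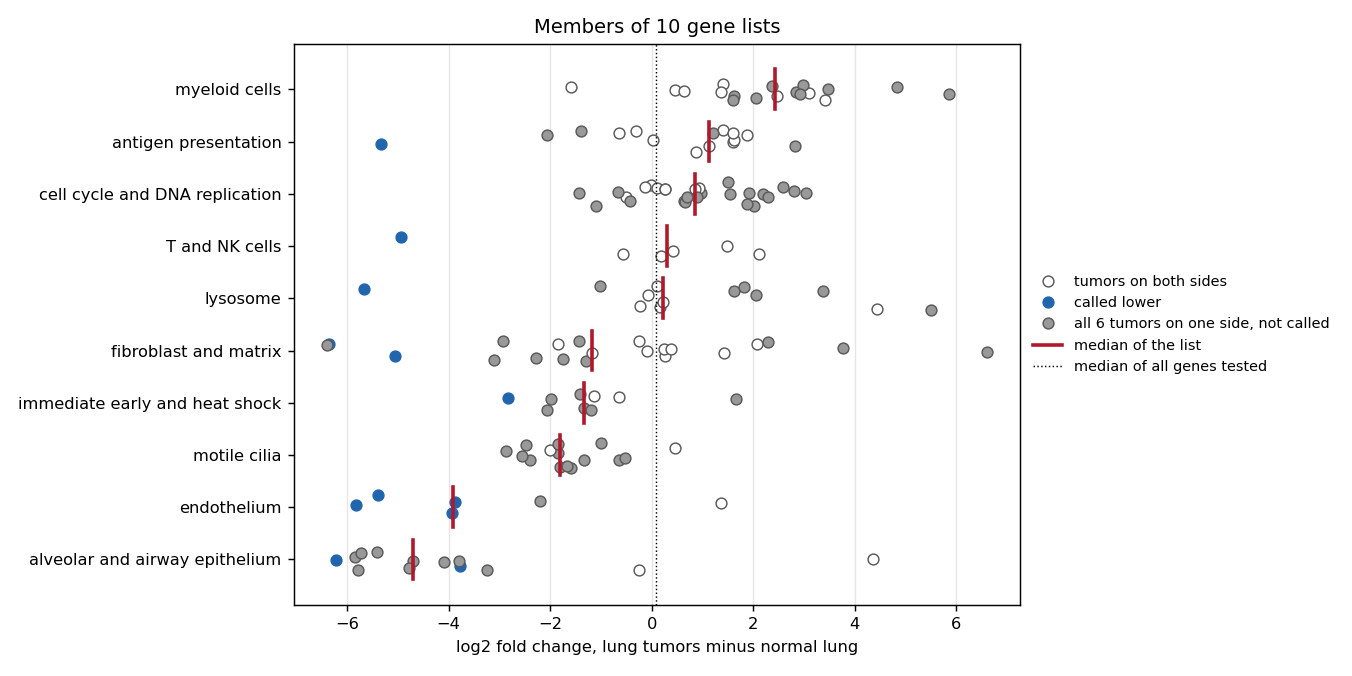
Each circle is a gene of the list named on the y axis and the x axis is its log2FC, lung tumors minus normal lung. Filled blue circles were called lower, grey circles had all 6 tumors on one side without a call and open circles had tumors on both sides. Red bars are the list medians, which run from -4.71 for lung epithelium to 2.42 for myeloid cells, and the dotted line is the median of all genes tested, 0.08.

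With edgeR, 3 genes with names were called higher, against 8 with its newer quasi-likelihood method and 48 with DESeq2. The 3 had little spread among tumors, and because the test took its spread from the tumors, this was part of what gave the call. MTHFD1L, a mitochondrial enzyme of folate metabolism, was at 3.37 in the normal lung and at 6.34 in HS27, 6.73 in HS35, 5.82 in HS47, 6.34 in HS48, 6.84 in HS52 and 6.32 in HS53. It rose by 3.06 ± 0.66 on the log2 scale (adjusted p = 0.042). MTFR2, a regulator of mitochondrial fission, was at 2.34 in the normal lung and at 4.82 to 5.60 in the tumors, and rose by 3.05 ± 0.66 (adjusted p = 0.042). AGAP2, a GTPase-activating protein, was at 2.08 in the normal lung and at 4.66 to 5.43 in the tumors, and rose by 3.03 ± 0.68 (adjusted p = 0.047). The normal spleen held MTHFD1L at 4.70 and AGAP2 at 4.21, nearer to the tumors than the normal lung was, and the 3 blood libraries held AGAP2 at 7.09 to 7.85, above every lung tumor. All 3 calls were lost when any of HS35, HS47, HS48, HS52 or HS53 was left out.

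Other named genes had larger differences and were not called by edgeR. Of those in this paragraph, DESeq2 called FBP1, SMPDL3A, SLC27A6, FOXRED2 and CYP27B1 higher, and did not call CPNE5. FBP1, an enzyme of gluconeogenesis, was at 3.38 in the normal lung and at 10.70 in HS27, 8.88 in HS35, 8.89 in HS47, 8.16 in HS48, 10.34 in HS52 and 6.54 in HS53. No tumor came within 3 log2 units of the normal lung, and the log2FC was 6.10 ± 1.88 (adjusted p = 0.12). SMPDL3A, a phosphodiesterase related to acid sphingomyelinase, was at 5.17 in the normal lung and at 8.62 in HS27, 10.25 in HS35, 9.94 in HS47, 12.58 in HS48, 9.48 in HS52 and 8.70 in HS53, a log2FC of 5.51 ± 2.08 (adjusted p = 0.21). CPNE5, a copine, had the highest log2FC, 7.78 ± 3.71 (adjusted p = 0.33), from -2.30 in the normal lung to between -0.23 in HS47 and 7.73 in HS27. SLC27A6, FOXRED2 and CYP27B1, the enzyme that makes active vitamin D, had all 6 tumors above the normal lung, as the naming rule required. Their log2FC was 4.99, 4.21 and 3.98 in that order, and none passed edgeR's test (adjusted p of 0.25 to 0.26).

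Myeloid genes had the highest list median. Of 18 genes, 10 (55.6%) had the normal lung below all 6 tumors, beside 16.6% of all genes tested. None had it above, beside 27.7%, and the median log2FC was 2.42. With edgeR none was called and 5 were higher at an unadjusted p under 0.05. DESeq2 called 5 higher, CYTH4, CSF2RB, NCF4 and DCSTAMP among them, and edgeR's newer method called CYTH4. CYTH4, an exchange factor of blood cells, came nearest to a call. It was at 4.65 in the normal lung and at 8.67 in HS27, 8.71 in HS35, 7.07 in HS47, 7.04 in HS48, 8.40 in HS52 and 7.91 in HS53, with a log2FC of 3.47 ± 0.97 (adjusted p = 0.095). CSF2RB was at 4.59 in the normal lung and 6.62 to 8.85 in the tumors. NCF4, a subunit of the phagocyte oxidase, was at 3.98 in the normal lung and 5.31 to 7.74 in the tumors. CD63, a tetraspanin of lysosomes and secretory granules, was at 8.21 in the normal lung and at 9.24 to 10.71 in the tumors. These ranges did not overlap the normal lung, and the adjusted p values of the 3 genes were 0.18 to 0.32.

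Other myeloid genes differed between the tumors themselves. LYZ was at 8.45 in the normal lung, at 8.02 in HS35 and 9.43 in HS52, and at 12.15 in HS53 and 11.55 in HS47. DCSTAMP, which is needed for fusion of macrophage-lineage cells, had the highest log2FC of the list, 5.85 ± 3.04 (adjusted p = 0.38). It was at -2.19 in the normal lung, -2.07 in HS27, -0.14 in HS47, 1.53 in HS35, 2.99 in HS48, 4.07 in HS52 and 5.41 in HS53. TSPO, a mitochondrial membrane protein, had the lowest, -1.60 ± 1.59, at 6.2 in HS52 and 0.76 in HS53 around 5.80 in the normal lung. The summed myeloid list was 1191 CPM in the normal lung, 2530 to 7447 CPM in the lung tumors and 3165 CPM in the normal spleen.

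Lysosomal genes split. Of 13 tested, 5 (38.5%) had the normal lung below all 6 tumors, beside 16.6% of all genes tested. For 2 (15.4%) it was above all 6, a smaller share than the 27.7% of all genes. The median log2FC of 0.23 was near that of all genes. LAPTM4B, a lysosomal membrane protein, was called lower. It was at 4.35 in the normal lung and at -1.18 in HS27, -0.91 in HS35, -0.03 in HS47, -4.69 in HS48, -1.44 in HS52 and -2.90 in HS53, and fell by 5.66 ± 1.13 on the log2 scale (adjusted p = 0.033). The call was lost without HS27, HS35, HS52 or HS53. ATP6V1C1, a subunit of the proton pump, was at 5.90 in the normal lung and at 7.33 to 8.28 in the tumors, with a log2FC of 2.05 ± 0.62 (adjusted p = 0.12).

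Cell cycle and DNA replication genes were more often above than below the normal lung. With edgeR none of the 27 was called and 6 were higher at an unadjusted p under 0.05. DESeq2 called GTSE1, CDC25C and KIFC1 higher, and edgeR's newer method called GTSE1. The normal lung lay below all 6 tumors for 14 of the 27 (51.9%), beside 16.6% of all genes tested. It lay above all 6 for 4 (14.8%), beside 27.7%, and the median log2FC was 0.85. GTSE1, a protein of the mitotic phases, was at 2.05 in the normal lung and at 4.33 to 5.37 in the tumors, with a log2FC of 2.80 ± 0.73 (adjusted p = 0.077). CDC25C, the phosphatase that triggers mitotic entry, was at -0.04 in the normal lung and at 2.23 in HS27, 3.55 in HS35, 3.07 in HS47, 3.49 in HS48, 2.73 in HS52 and 2.26 in HS53, with the highest log2FC of the list, 3.04 ± 1.03 (adjusted p = 0.16). KIFC1, a kinesin of the spindle, was at 3.91 against 5.37 to 6.82. CDK4, the kinase of the G1 phase, was at 6.6 against 7.24 to 7.92, a narrow range that did not reach the normal lung. CDC14B, a phosphatase, had the lowest log2FC, -1.42 ± 1.13. The list had a median SD among tumors of 0.65, below the 0.96 of all genes.

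Antigen presentation genes were uneven, and HS53 stood apart from the other tumors. Of 15 tested, 10 had tumors on both sides of the normal lung, beside 12104 of the 21723 genes tested. The median log2FC was 1.14. Summed over the list, HS53 had 1614 CPM, against 5202 CPM in the normal lung, a median of 12720 CPM over the 6 tumors and 25256 CPM in HS27. DLA-DRA, the class II alpha chain, was at 10.43 in the normal lung, at 7.87 in HS53 and 10.07 in HS47, and between 11.71 and 12.59 in the other 4 tumors. The class II beta chain gene named by its human counterpart HLA-DRB1 was at 10.30 in the normal lung, 7.90 in HS53, 9.90 in HS47 and 13.44 in HS27. PSMB8, a subunit of the immunoproteasome, was at 6.21 in the normal lung, 4.38 in HS53 and 9.76 in HS27. HS53 was the only HHS tumor taken from the lung, so subtype and individual cannot be told apart among the lung tumors. The HHS tumors of other sites, HS41 (lymph node) and HS46 (liver), did not share these low values. They held DLA-DRA at 12.02 and 12.57, HLA-DRB1 at 12.73 and 12.13, and PSMB8 at 9.45 and 8.50. Whether subtype bears on these levels was not tested.

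The class I genes differed among themselves. The gene matched to human HLA-C was called lower. It was at 6.12 in the normal lung, at 1.65 in HS27, 0.35 in HS35, -0.01 in HS47, 0.07 in HS48, 1.97 in HS52 and -3.05 in HS53, and fell by 5.33 ± 1.05 on the log2 scale (adjusted p = 0.032). The call was lost without HS27, HS35, HS47 or HS48. DLA88, the classical class I gene, was at 9.88 in the normal lung, 3.82 in HS53 and 7.49 to 9.55 in the others. DLA-64, a related class I gene, had the highest log2FC of the list, 2.83 ± 1.59 (adjusted p = 0.43), with 8.05 in the normal lung and 8.29 to 12.47 in the tumors. Class I genes are near-identical copies that vary between dogs, so the split of reads among them is uncertain.

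**Figure D4:**
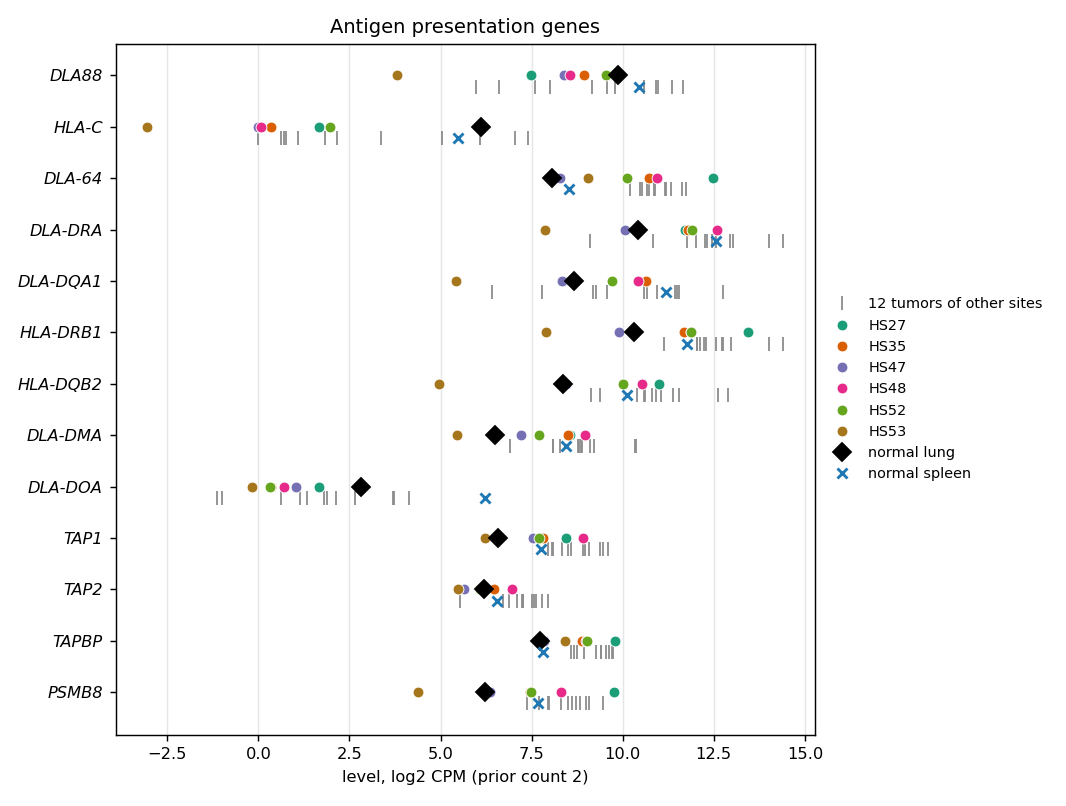
Levels of 13 antigen presentation genes in log2 CPM. Coloured circles are the 6 lung tumors, the black diamond is the normal lung, the blue cross is the normal spleen and grey ticks are the 12 tumors of other sites. HS53 has the lowest lung tumor value for DLA-DRA (7.87), HLA-DRB1 (7.90) and PSMB8 (4.38).

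Genes of T and NK cells showed no common direction. Of 6 tested, 5 had tumors on both sides of the normal lung, beside 12104 of the 21723 genes tested. The sixth, TCF7, a transcription factor of naive T cells, was called lower. TCF7 was at 3.23 in the normal lung and at -3.31 to -0.25 in the tumors, and fell by 4.94 ± 1.02 on the log2 scale (adjusted p = 0.036). Only leaving out HS47 kept the call. THEMIS, a T cell gene, was at -0.10 in the normal lung and at -3.02 to 1.81 in the tumors. IL2RB, a cytokine receptor chain of T and NK cells, was at 2.84 in the normal lung, -0.16 in HS53 and 5.33 in HS27. IFNG, the interferon of activated T and NK cells, ran from -3.49 in HS27 to 2.26 in HS48 around -1.78. The summed list was 30.2 CPM in the normal lung, 13.3 to 57.9 CPM in the tumors and 219 CPM in the normal spleen.

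Immediate early and heat shock genes were mostly below the normal lung. Of 9 tested, 6 (66.7%) had the normal lung above all 6 tumors, beside 27.7% of all genes tested. The median log2FC was -1.33. EGR1, a transcription factor induced within minutes of a stimulus, was at 8.37 in the normal lung and at 4.76 in HS27, 6.30 in HS35, 5.25 in HS47, 5.47 in HS48, 5.77 in HS52 and 5.16 in HS53. It fell by 2.84 ± 0.50 on the log2 scale (adjusted p = 0.023), a call lost without HS47. TNFAIP3, an inhibitor of NF-kappaB signaling, had the highest log2FC, 1.66 ± 0.97 (adjusted p = 0.45), with 4.37 in the normal lung and 4.44 to 6.66 in the tumors. How long each tissue stood before freezing was not given, and its part in these values was not tested.

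Markers of liver, pigment cells and glia were low in the lung tumors. The hepatocyte genes ARG1 and PLG reached at most 1.93 and -0.62 log2 CPM in the lung tumors, against 12.10 for ARG1 and 13.77 for PLG in normal liver. The melanocyte genes PMEL and MLANA were at most 1.11 and -2.01, and the glial gene SOX10 at most -2.81. ITGA7, an integrin of muscle, was not low, but its span overlaps that of METTL7B in the RefSeq gene table, so its counts are uncertain. It was at 4.57 in the normal lung and at 5.69 to 7.79 in the tumors, with a log2FC of 2.29 ± 0.92 (adjusted p = 0.24).

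The second comparison asked which genes set the lung tumors apart from the 12 tumors of other sites. Of 18177 genes tested, edgeR called none (0%) and the smallest adjusted p was 0.082. At an unadjusted p under 0.05, 606 genes were higher (3.33%) and 647 were lower (3.56%), 1253 in all, and DESeq2 called 37 higher and 23 lower. The 2 comparisons share the lung tumors, so their values are set side by side only.

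MOXD1 came nearest to a call among the named genes. The 12 other tumors held it at -3.00 to 4.38 with a median of 1.78, while HS35, HS47, HS48 and HS53 were above all of them and HS27 and HS52 were within their range. The log2FC was 5.66 ± 0.99 (edgeR adjusted p = 0.083). The normal liver held MOXD1 at 8.63. HLA-C was lower in the lung tumors than in the others by a log2FC of -4.36 ± 1.33 (adjusted p = 0.62). The other tumors held it at -0.02 to 7.40, with HS53 below all of them and the other lung tumors within that range.

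Some lung epithelial genes had a positive log2FC against the other tumors, without a call. AGER was at 0.85 to 3.75 in the 12 other tumors with a median of 2.51, and HS35, HS47 and HS52 were above all of these. Its log2FC was 1.77 ± 0.50 (adjusted p = 0.55). SLC44A4 was at -5.21 to -1.22 in the other tumors, with HS52 at 3.86 alone well above, and had a log2FC of 3.87 ± 0.95 (adjusted p = 0.39). TSPAN8 had a log2FC of 3.06 ± 1.21 (adjusted p = 0.69), with HS35 and HS47 above the highest of the other tumors, 4.65. RIBC2, a ciliary gene, was listed at -6.10 to -2.09 in the other tumors and had a log2FC of 3.20 ± 0.98 (adjusted p = 0.62), and LRRC6 had 1.68 ± 0.78 (adjusted p = 0.72). Over the 10 epithelial genes tested here, 3 were higher at an unadjusted p under 0.05 and none was lower, with a median log2FC of 0.15. The direction of that median rested on single tumors: without HS52 it was -0.77, with 2 genes higher and 1 lower, and without HS53 it was -0.0055. With DESeq2 it was 0.86.

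The endothelial genes that fell against the normal lung overlapped between the lung tumors and the others. PTPRB was at -0.48 to 3.75 in the other tumors and 0.65 to 3.41 in the lung tumors, a log2FC of -0.29 ± 0.57. MYCT1 was at 0.37 to 3.74 in the other tumors, and PODXL at 2.42 to 5.47, both overlapping the lung tumors throughout. MTHFD1L, MTFR2 and AGAP2 likewise overlapped, with log2FC values of 0.58 ± 0.35, 0.02 ± 0.32 and 0.01 ± 0.33, of which the last pair changed sign under some alternatives.

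**Figure D5:**
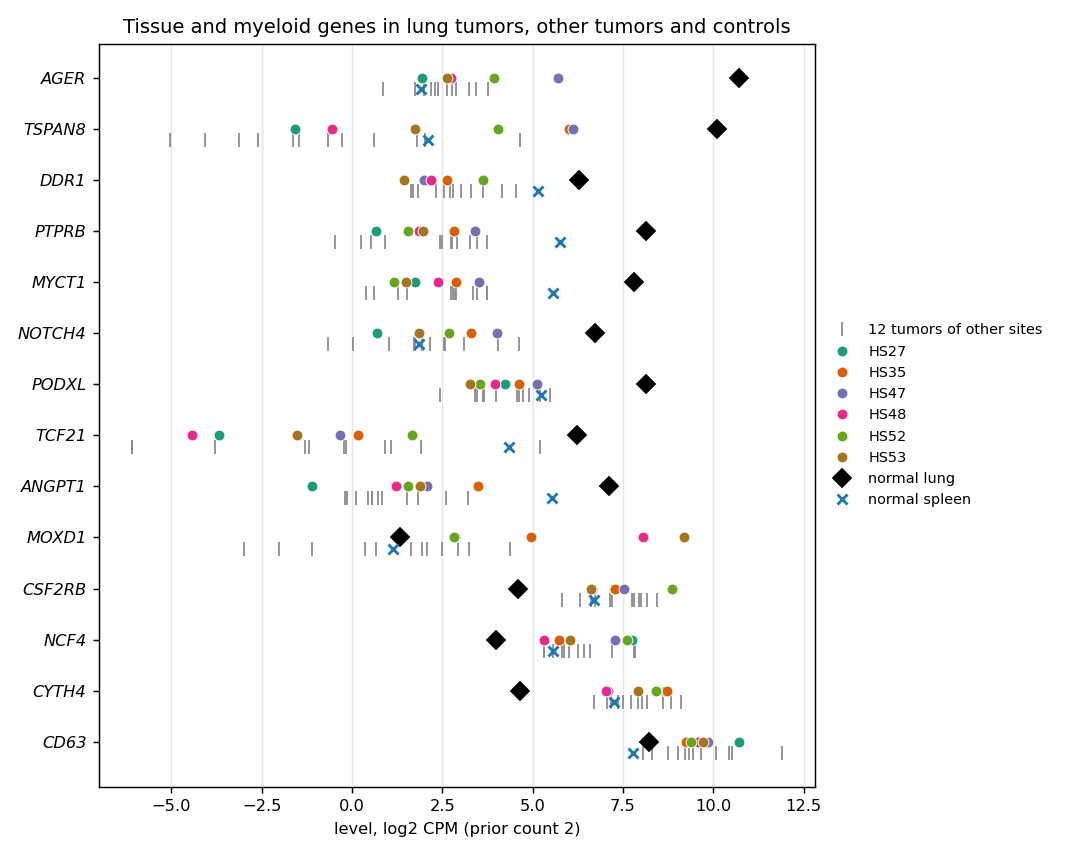
Levels of 14 tissue and myeloid genes in log2 CPM. Coloured circles are the 6 lung tumors, the black diamond is the normal lung, and below each row the blue cross is the normal spleen and grey ticks are the 12 tumors of other sites. For PTPRB and MYCT1 the normal lung is above all tumors of either kind, and for MOXD1 4 of the lung tumors lie above all 12 other tumors.

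The antigen presentation genes stood lower in the lung tumors than in the other tumors, without a call by edgeR. All 15 had a log2FC below 0, with a median of -1.10 beside -0.08 over all genes tested, and 7 were lower at an unadjusted p under 0.05. TAP2, a subunit of the peptide transporter, was at 5.54 to 7.95 in the other tumors with a median of 7.26 and at 5.47 to 6.95 in the lung tumors. Its log2FC was -1.10 ± 0.30 (adjusted p = 0.49). TAP1, the partner subunit, had a log2FC of -0.87 ± 0.35 (adjusted p = 0.69). The count of 7 fell to 3 without HS53 and rose to 9 without HS27, and the median was -0.98 without HS53. All 6 T and NK cell genes also had a log2FC below 0 in this comparison, with a median of -1.26, and whether this bears on the antigen presentation genes was not tested. Of these, TCF7 had a log2FC of -2.97 ± 1.02 (adjusted p = 0.64), from a median of 0.97 in the other tumors. EGR1 had a log2FC of -1.20 ± 0.56 (adjusted p = 0.72), and DCSTAMP, with HS52 and HS53 above all 12 other tumors, had 2.29 ± 1.03 (adjusted p = 0.72).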

How the data were processed

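RNA-seq was deposited for 18 HS tumors and 6 controls as raw counts per Ensembl gene identifier (32704), which the authors made with cutadapt 3.7, STAR 2.7.10a on CanFam3.1 and HTSeq 2.0.0. The annotation release and strand setting are not given in the sources used here. Of these libraries, 6 lung tumors, the normal lung and 12 tumors of other sites were tested. The study left out 1 control as an outlier, which the text used here does not name, and all controls were kept. The cell line table was not used.

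Counts were tested with edgeR 4.0.16 in R 4.3.3 (filterByExpr, TMM factors of the libraries compared, quasi-likelihood test, Benjamini-Hochberg), and a gene was called when its adjusted p was under 0.05 and its log2FC beyond 1.5 in either direction. The code was tested on simulated data. DESeq2 1.42.0 was an alternative. The SE is the log2FC divided by the root of F. P-values measure the spread between these samples, 1 library per dog as far as the labels say. A floor of 3 counts covers counting error only.

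Gene names came from the readable part of the study's supplementary tables, 1126 of 1261 identifiers, 101 by human homolog only. Their values were not used. Named genes were the 10 highest and 10 lowest log2FC among called named genes with at least 3 log2 CPM in the higher group and all 6 tumors on one side (places left were filled by uncalled genes), the highest, lowest and called members of 10 gene lists, and cell type markers. Some genes that met this rule are not reported here. The comparison, lists and markers were chosen with earlier results of these data known. By RefSeq's gene table for the assembly UU_Cfam_GSD_1.0, 19 of the 53 named genes found there overlap another gene, AGER, ANGPT1, AGAP2, MTHFD1L, MOXD1, NOTCH4 and SMPDL3A among them, and their counts are uncertain. No sequence of these genes was used here, so a planned description of promoter motifs was not run.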

Additional observations from a re-analysis of the deposited data

Results flagged for a closer look

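Among the 63 named genes, each checked for its highest and lowest lung tumor, 1 value stood far from the rest. ARG1, an arginase of hepatocytes and some myeloid cells, was at 1.93 log2 CPM in HS53, against 0.82 in the next tumor and 1.11 in the normal lung. The gap took up 0.659 of the range of the 6 tumors, over Dixon's critical value for 6 values. Chance alone passes this limit in about 1 of 20 groups, and 126 tails were checked.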

How the results depend on the processing

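The counts called against the normal lung (63 higher, 655 lower) depended on the method. DESeq2 called 950 and 1094, the Benjamini-Yekutieli adjustment 1 and 16, a test against a log2FC of 1.5 gave 7 and 180, and edgeR's newer quasi-likelihood method, chosen after seeing the data, 174 and 1672. With the spread taken from all 24 libraries, 109 were higher. Leaving out each tumor in turn gave 10 to 75 higher and 313 to 636 lower. Without HS47 there were 10 and 313, without HS35 23 and 363, and without HS48 or HS52 37 and 41 higher. With a mean of at least 1 CPM required, the normal lung was above all 6 tumors for 3280 genes and below all 6 for 3011. Against the other tumors, where no gene was called, DESeq2 called 37 higher and 23 lower, no filter 2 higher, a mean of at least 1 CPM 2 higher, the newer method 37 higher, and leaving out each tumor 0 to 5 higher (5 without HS27, 4 without HS48). None of the 24 called named genes kept its call under every alternative, and 21 uncalled ones gained a call in at least 1. The sign turned for 3 uncalled genes against the normal lung, whose log2FC over the tumors left out in turn ran from -0.30 (without HS27) to 0.52 for FBLN1, from -0.17 (without HS48) to 0.14 for TAP2, which was -0.031 without HS35, and from -0.73 (without HS48) to 0.42 for THEMIS. Against the other tumors, 26 of 80 genes changed sign under at least 1 alternative, AGAP2 and MTFR2 among them, and PLG went from -5.55 to 0.47 with DESeq2. The cause of these changes was not tested. No paired analysis was run, because the labels do not link any tumor to another sample of the same dog.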
